A study of Mus musculus with 12 samples.

Results

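The question was whether a hairpin RNA against Brpf1 moved the same genes in cultured hippocampal neurons and in CA1 tissue, or moved them in opposite directions. For each gene, the knockdown effect in CA1 (log2 of shBrpf1 over scramble) was set against the effect in neurons. Genes entered where they had at least 10 counts in 3 or more of the 6 libraries of each experiment, lay on a known chromosome and were on neither chromosome 13 nor Y. Of 27179 gene IDs, 14577 were tested, and all 12 libraries of the series were used. The libraries fall into 4 groups of 3, and each held 18330618 to 30275304 counts (median 24746880).

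Both experiments used C57BL/6 mice and an AAV2 virus that carries GFP with either a scramble hairpin or shBrpf1, a short hairpin RNA against Brpf1. The promoter that drives the hairpin is not given in the sources used here, and no library comes from animals or cells without virus. The neuron groups, scramble and shBrpf1, are primary cultures of embryonic hippocampi infected on day 3 in vitro. Their labels disagree on the age of the embryos, with embryonic day 18 to 19 as the stage and an earlier day in the protocol. For the CA1 groups, mice were injected at 4 weeks of age and the tissue is labelled as 8 weeks old. Per the study's methods, the scramble virus went into the left and the shBrpf1 virus into the right CA1. Its figure legends instead count mice for each virus group, so the layout is uncertain. If the methods hold for these libraries, hemisphere and hairpin cannot be told apart. The number of mice or litters behind a library is not given in the sources used here, so p-values measure the spread between these libraries.

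BRPF1 is a scaffold protein of chromatin. Its PHD fingers, bromodomain and PWWP domain bind histone tails, and it holds the acetyltransferases KAT6A, KAT6B or KAT7 together with ING5 and MEAF6 in one complex that acetylates histone H3. In the hippocampus it is needed for the dentate gyrus to form, and human mutations of 1 copy of the gene cause intellectual disability. Cultures of embryonic hippocampus hold young neurons and glia, whereas CA1 tissue of a mouse holds mature pyramidal neurons, interneurons, glia, vessels and the microglia that respond to injury and virus.

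The hairpin itself is shown because both experiments rest on it. Its sense strand, given by the study, and its antisense strand, with the seed (bases 2 to 8) in capitals, read as follows.
shBrpf1 sense: ggcttaccgctacttgaactt
shBrpf1 antisense: aAGTTCAAgtagcggtaagcc
The target of 21 bases lies at chr6:113318477-113318497 on the forward strand of GRCm38, in exon 7 of Brpf1. It is coding sequence in 7 of the 10 annotated transcripts of the gene, and 1 gene in the annotation, Brpf1, holds an exact match.

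Brpf1 mRNA, the target in both experiments, had groups that overlapped in both experiments. In neurons it stood at 24.4, 55.04 and 39.8 CPM (the normalised read count, scaled to library size by TMM) in scramble replicates 1, 2 and 3 and at 28.04, 51.9 and 33.4 CPM in the shBrpf1 replicates. In CA1 it stood at 42.9, 48.9 and 37.9 CPM with scramble and 29.4, 39.5 and 30.02 CPM with shBrpf1. In CA1 each shBrpf1 library was below the scramble library of its number. The effect was -0.073 ± 0.30 (log2, standard error) in neurons and -0.39 ± 0.30 in CA1. The fit used 1 estimate of spread per gene for both experiments, so these errors do not measure the spread of each experiment alone. The SD of scramble and shBrpf1 was 15.3 and 12.5 CPM in neurons and 5.50 and 5.67 CPM in CA1. The difference between the experiments was -0.32 ± 0.42 in edgeR (unadjusted p = 0.47). On log2 CPM it was -0.35 (exact permutation test within each experiment, two-sided, p = 0.465, where 400 arrangements allow no p under 0.005), and the mean of both effects was -0.22 (exact permutation p = 0.345). With replicate number as a block, which compares libraries of the same number, the mean effect from edgeR was -0.22 ± 0.094 (unadjusted p = 0.0462) and the difference -0.35 (unadjusted p = 0.0985). The libraries therefore do not show that the knockdown differed between the cultures and the tissue. In neurons they also show no clear reduction of Brpf1 mRNA (with the block -0.045 ± 0.13, edgeR, unadjusted p = 0.742). The study reported a reduction by RT-qPCR in both the cultures and the injected hippocampus.

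Over all genes, the estimated effects in the cultures and in the tissue were only weakly related. Of the 14577 genes, 8132 (55.79%) had effects of the same sign, 3748 higher and 4384 lower with shBrpf1 in both. A further 3358 genes were higher in CA1 and lower in neurons, and 3087 the reverse. Across genes, which share their libraries and are no independent replicates, the effects correlated at r = 0.096 (Spearman rho = 0.15). Among the 2919 genes with a mean of at least 100 CPM in a group, 60.43% had the same sign and r was 0.24. The share of all genes with the same sign moved between 49.72% without neurons scramble 2 and 59.2% without CA1 shBrpf1 2, and r between -0.098 and 0.20, so that 1 library was enough to turn the sign of the correlation. With each library's trend with transcript length removed, 52.45% had the same sign and r was 0.048. The plot of CA1 effects against neuron effects shows a cloud around 0 with little slope. Noise in the estimates lowers such a correlation, so a low r cannot tell unrelated responses from responses measured with large errors.

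**Figure D1:**
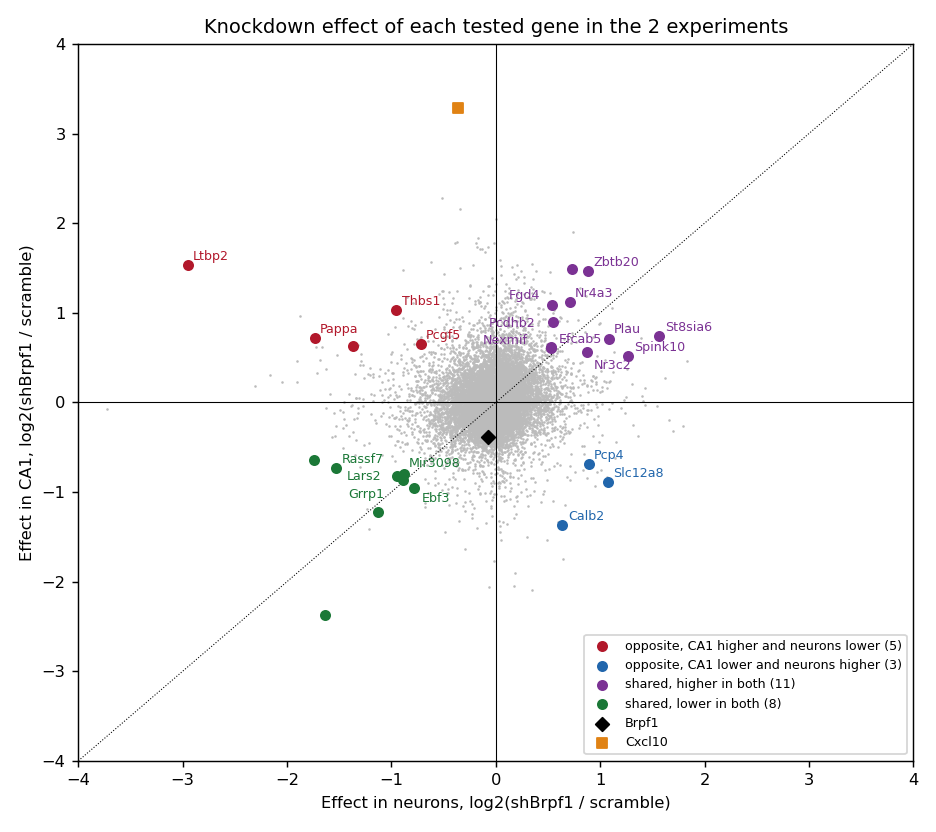
Knockdown effect of each of the 14577 tested genes in neurons (x axis, log2 of shBrpf1 over scramble) and in CA1 (y axis, same unit), with the dotted line where both are equal. Coloured points are the genes called with opposite (8) or shared (19) responses, the diamond is Brpf1 (-0.073 and -0.39) and the square is Cxcl10 (-0.36 and 3.29).

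Few genes passed the thresholds in the fit without a block, and none after adjustment. That fit leaves out the pairing of the cultures by number (described with the processing), so the spread between pairs enters its errors. A difference was called at an unadjusted p under 0.05 and a size of at least 1 (log2), and a shared effect at an unadjusted p under 0.05 with a mean of both effects of at least 0.5. Of all tested genes, 24 (0.165%) had an unadjusted p under 0.05 for the difference and 71 (0.487%) for the mean, both smaller shares than the p threshold itself. Calls of the difference comprised 13 genes higher in CA1 than in neurons (0.0892%) and 6 lower (0.0412%), and calls of the mean comprised 20 higher (0.137%) and 16 lower (0.11%). After Benjamini-Hochberg adjustment the lowest adjusted p from edgeR's quasi-likelihood test was 1 for the difference and 0.9998 for the mean. The typical standard error (median over genes) was 0.42 for a difference and 0.21 for a mean, while a typical effect was 0.13 in size in neurons and 0.18 in CA1. With the replicate block, 324 genes (2.22%) had an unadjusted p under 0.05 for the difference and 643 (4.41%) for the mean, and the lowest adjusted p was 0.925 and 0.733. The typical standard error was then 0.26 for a difference and 0.13 for a mean. The study's threshold for 1 experiment was a log2 fold change of at least 1 in size and an unadjusted p under 0.05. Applied to the edgeR fit over both experiments, it called 34 genes in neurons and 26 in CA1, with 0 in both, and 0 again with the block (55 and 86). The study, which used DESeq2, reported more genes at this threshold in each experiment. With so few calls among all tested genes, hardly any gene would be called in both even if the responses were unrelated. The lack of overlap therefore cannot tell shared from separate responses. The shBrpf1 libraries lay wholly beyond the scramble libraries for 1.61% of genes in neurons, 5.23% in CA1 and 0.0892% (13 genes) in both.

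A gene was put in an opposite class where its difference was called and its effects were of opposite sign and each at least 0.5 in size. This held for 5 genes that were higher in CA1 and lower in neurons (Ltbp2, Thbs1, Pcgf5, Pappa and, under 1 CPM in every group and named after its values were seen, Spdya) and for 3 genes that were lower in CA1 and higher in neurons (Slc12a8, Calb2 and Pcp4). For 5 of the 7 genes plotted from these classes, the highest neuron library was a replicate 1, scramble for Ltbp2, Thbs1 and Pappa and shBrpf1 for Calb2 and Pcp4. RNA of whole tissue cannot tell fewer cells of a type from less RNA per cell, here or in any result from CA1 or from the mixed cultures.

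**Figure D2:**
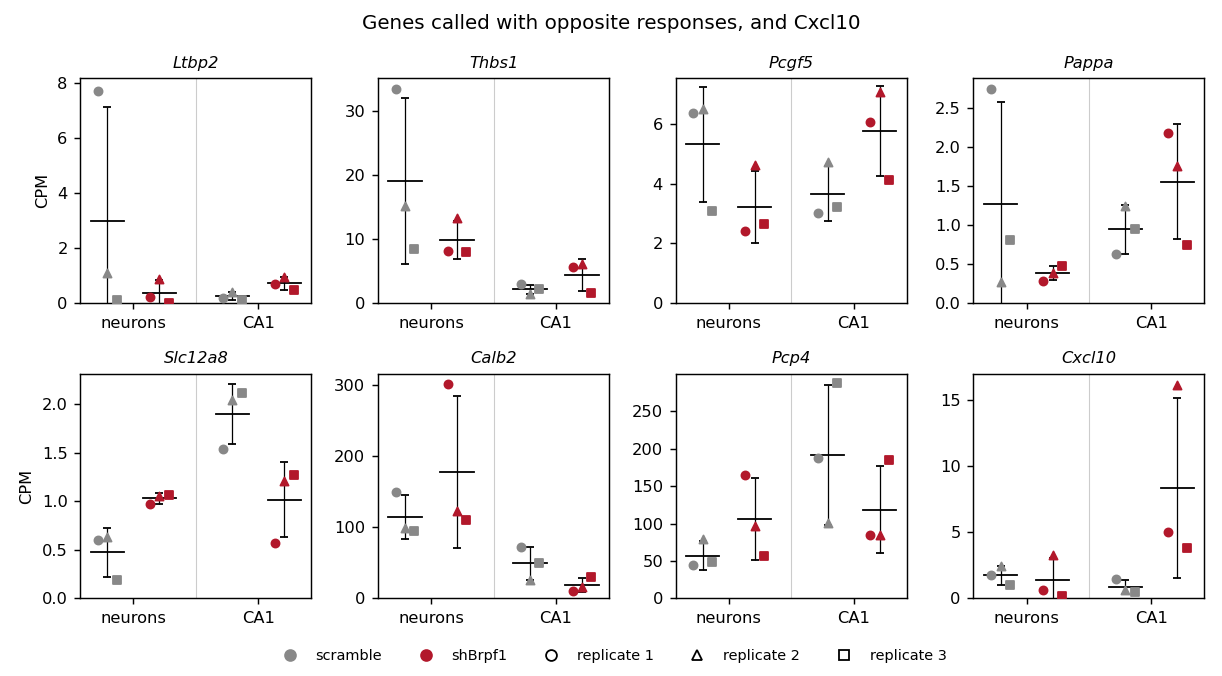
CPM of the 7 genes with opposite responses and at least 1 CPM in a group, and of Cxcl10, in each library (grey scramble, red shBrpf1, with circle, triangle and square for replicates 1, 2 and 3). Bars are the mean and SD of 3 libraries, and the scale of the y axis, from 0, differs by gene. Slc12a8 has groups that do not overlap in either experiment.

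Calb2 encodes calretinin, a calcium-binding protein of some interneurons and, in mice, of mossy cells of the dentate hilus. It stood at 149.5, 99.8 and 94.4 CPM in the scramble libraries of neurons and 301, 123 and 110.4 CPM in their shBrpf1 libraries. The CA1 level was 72.6, 26.3 and 49.4 CPM with scramble and 10.3, 16.8 and 30.3 CPM with shBrpf1. Within each number the shBrpf1 library was the higher one in neurons and the lower one in CA1, although the groups overlapped in both experiments. The effect was 0.64 ± 0.49 in neurons and -1.37 ± 0.50 in CA1, a difference of -2.01 ± 0.70 (edgeR, unadjusted p = 0.0144), and the difference kept its call without any single library (-2.53 to -1.40). The higher mean of shBrpf1 in neurons rested on shBrpf1 1, since shBrpf1 2 and 3 lay within the range of the scramble libraries. Pcp4, a calmodulin-binding protein enriched in CA2 and in the dentate gyrus, had the same pattern. It stood at 44.3, 79.2 and 48.2 CPM in the scramble libraries of neurons and 165, 96.4 and 56.96 CPM in their shBrpf1 libraries. In CA1 its level was 187, 101 and 287 CPM with scramble and 85.3, 85.4 and 186 CPM with shBrpf1, with overlap in both experiments. Its difference was -1.58 ± 0.67 (unadjusted p = 0.0375). The call was lost without neurons scramble 1 or 3, neurons shBrpf1 1, CA1 scramble 1 or 3 or CA1 shBrpf1 1 or 2, with values between -1.61 and -1.11 and p up to 0.117.

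Slc12a8, a member of the family of cation-chloride cotransporters, was the one gene of the opposite classes whose groups did not overlap in either experiment. It stood at 0.604, 0.632 and 0.186 CPM in the scramble libraries of neurons and 0.967, 1.06 and 1.06 CPM in their shBrpf1 libraries. The level in CA1 was 1.54, 2.04 and 2.11 CPM with scramble and 0.576, 1.21 and 1.27 CPM with shBrpf1. The level was low, but every shBrpf1 library was above every scramble library in neurons and below every scramble library in CA1. Its effect was 1.07 ± 0.49 in neurons and -0.89 ± 0.47 in CA1, and the difference of -1.97 ± 0.68 (unadjusted p = 0.0138) kept its call without any single library (-2.21 to -1.62).

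The 4 genes with the reverse pattern and at least 1 CPM include 3 of secreted proteins. Thbs1 encodes thrombospondin 1, a matrix protein that astrocytes release and that promotes synapse formation. It stood at 33.4, 15.1 and 8.41 CPM in the scramble libraries of neurons and 8.16, 13.2 and 8.02 CPM in their shBrpf1 libraries. In the CA1 tissue it was at 2.89, 1.41 and 2.11 CPM with scramble and 5.58, 6.002 and 1.51 CPM with shBrpf1. Neurons scramble 1 was the highest neuron library, and CA1 shBrpf1 3 lay among the scramble libraries. The difference was 1.98 ± 0.81 (unadjusted p = 0.0306), and 1.64 with the block (unadjusted p = 0.0539), where it was no longer called. The call was also lost without neurons scramble 1, neurons shBrpf1 1 or 3, CA1 scramble 2 or 3 or CA1 shBrpf1 1 or 2, with values between 1.29 and 1.96 and p up to 0.112. Pappa, a protease that frees insulin-like growth factors from their binding proteins, stood at 2.74, 0.266 and 0.804 CPM in the scramble libraries of neurons and 0.286, 0.388 and 0.472 CPM in their shBrpf1 libraries. The CA1 libraries were at 0.625, 1.25 and 0.953 CPM with scramble and 2.17, 1.75 and 0.736 CPM with shBrpf1, again with the highest neuron value in scramble 1. Its difference was 2.45 ± 1.04 (unadjusted p = 0.0366), and 1.93 with the block (unadjusted p = 0.0907). The call did not hold without neurons scramble 1, neurons shBrpf1 1 or 2, CA1 scramble 1 or 3 or CA1 shBrpf1 1 or 2, with values between 1.16 and 2.47 and p up to 0.205.

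Ltbp2, a matrix protein related to the binders of latent TGF-beta, had the largest difference of the opposite classes, 4.49 ± 1.77 (unadjusted p = 0.0269), and its effect in neurons rested mostly on scramble 1. It stood at 7.73, 1.10 and 0.124 CPM in the scramble libraries of neurons and 0.215, 0.881 and 0 CPM in their shBrpf1 libraries. Its CA1 level was 0.192, 0.416 and 0.124 CPM with scramble and 0.709, 0.959 and 0.491 CPM with shBrpf1, and there the groups did not overlap. Its call was lost without neurons scramble 1, neurons shBrpf1 1, CA1 scramble 1 or 3 or CA1 shBrpf1 2, with values between 2.27 and 4.35 and p up to 0.159, the lowest value being the one without neurons scramble 1. Pcgf5 encodes a RING-finger subunit of a Polycomb repressive complex, which ubiquitinates histone H2A. It stood at 6.36, 6.49 and 3.09 CPM in the scramble libraries of neurons and 2.40, 4.62 and 2.65 CPM in their shBrpf1 libraries. CA1 libraries stood at 3.03, 4.74 and 3.23 CPM with scramble and 6.07, 7.09 and 4.13 CPM with shBrpf1. Within each number the shBrpf1 library was the lower one in neurons and the higher one in CA1, although the groups overlapped. The difference was 1.37 ± 0.57 (unadjusted p = 0.0341), and 1.36 with the block (unadjusted p = 0.0104). Its call failed without neurons scramble 1 or 2, neurons shBrpf1 1 or 3, CA1 scramble 1 or 3 or CA1 shBrpf1 1 or 2, with values between 1.20 and 1.33 and p up to 0.0825.

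With the block, the opposite classes held 26 genes that were higher in CA1 and lower in neurons and 15 that were lower in CA1 and higher in neurons. Of the 5 and 3 genes above, 3 and 3 were among them, Thbs1 and Pappa being those that were not.

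The list of genes with the widest gap between the experiments was that of the interferon response. Interferons are cytokines that cells release on sensing viral nucleic acid. Their receptors activate transcription factors such as IRF9, which bind a sequence element (the interferon-stimulated response element) before the start of antiviral genes. Cxcl10, an interferon-induced chemokine that attracts T cells, stood at 1.77, 2.49 and 1.05 CPM in the scramble libraries of neurons and 0.645, 3.28 and 0.177 CPM in their shBrpf1 libraries. In CA1 it stood at 1.44, 0.624 and 0.497 CPM with scramble and 5.05, 16.2 and 3.80 CPM with shBrpf1. Each CA1 shBrpf1 library was above each CA1 scramble library, with replicate 2 far above the other shBrpf1 libraries, while the groups overlapped in neurons. The effect was 3.29 ± 0.94 in CA1 and -0.36 ± 0.87 in neurons, a difference of 3.65 ± 1.26 (unadjusted p = 0.014), and 3.98 with the block (unadjusted p = 0.00243), which put it in the opposite class. Without CA1 shBrpf1 2 the difference was 2.74 (unadjusted p = 0.0502), and that was the one library whose removal ended the call.

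Of 35 listed interferon-stimulated antiviral genes, 24 passed the filter in both experiments, and the other 11 were not tested. Their median effect was 1.14 in CA1 and -0.080 in neurons, against a median of -0.0082 and -0.015 over all genes. The difference was above 0 for 24 of 24 (median 1.16, range 0.14 to 2.80), as it was for 51.51% of all genes. For 14 of them the signs were opposite, with CA1 higher and neurons lower, and for 10 both effects were above 0. The unadjusted p for the difference was under 0.05 for 0 of 24 without the block and for 12 of 24 with it, beside 0.165% and 2.22% of all genes. The list was chosen with earlier results of these data known.

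Ifit1 and Ifit3 encode proteins that bind foreign RNA and block its translation. Ifit1 stood at 1.25, 3.43 and 0.866 CPM in the scramble libraries of neurons and 0.680, 3.03 and 0.118 CPM in their shBrpf1 libraries. The CA1 level was 5.002, 6.78 and 1.16 CPM with scramble and 12.3, 43.2 and 7.53 CPM with shBrpf1. Ifit3 stood at 4.87, 10.7 and 2.16 CPM in the scramble libraries of neurons and 2.69, 11.2 and 1.83 CPM in their shBrpf1 libraries. In CA1 its level was 14.8, 15.6 and 9.57 CPM with scramble and 28.2, 92.9 and 21.7 CPM with shBrpf1. For both genes every CA1 shBrpf1 library lay above every CA1 scramble library, and in neurons the groups overlapped. The difference was 2.80 ± 1.40 for Ifit1 (unadjusted p = 0.0686, with the block 3.05, unadjusted p = 0.000945). For Ifit3 it was 2.01 ± 1.06 (unadjusted p = 0.0833, with the block 1.89, unadjusted p = 0.00341). Rsad2, which encodes viperin, an enzyme that makes a chain-terminating nucleotide, stood at 1.29, 2.96 and 0.989 CPM in the scramble libraries of neurons and 1.18, 2.33 and 0.472 CPM in their shBrpf1 libraries. The level in CA1 was 2.36, 2.79 and 0.829 CPM with scramble and 4.43, 13.2 and 2.99 CPM with shBrpf1, a difference of 2.18 ± 1.04 (unadjusted p = 0.0583, with the block 2.11, unadjusted p = 0.00257). Mx2, a dynamin-like GTPase, had a difference of 2.19 ± 1.17 (unadjusted p = 0.0865, with the block 2.27, unadjusted p = 0.0491). In DESeq2 with the block, 3 genes had an adjusted p under 0.05 for the difference, the only ones under any setting that was run. They were Oasl2, an oligoadenylate synthetase-like protein named after its values were seen (2.56, adjusted p = 0.000524), Ifit1 (3.12, adjusted p = 0.00535) and Cxcl10 (4.15, adjusted p = 0.0151).

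The size of this difference depended on CA1 shBrpf1 2 and on neurons scramble 2. The summed level of the listed genes was 134, 241 and 112 CPM in the scramble and 133, 249 and 108 CPM in the shBrpf1 libraries of neurons. In CA1 it was 287, 289 and 152 CPM with scramble and 343, 949 and 243 CPM with shBrpf1. In neurons the libraries of a number had nearly the same sum whichever virus they had, and in CA1 the shBrpf1 library was the higher one in 3 of 3 numbers. Without CA1 shBrpf1 2 the median difference of the list was 0.28 in place of 1.16, and over all libraries left out in turn it ran from 0.28 to 2.24. Without neurons scramble 2 it was 0.43, and the median effect of the list in neurons was then 0.67, above 0. Choroid plexus genes, which mark tissue of the ventricle, also differed between the CA1 libraries, with sums of 7011, 276 and 1863 CPM in scramble and 213, 5975 and 472 CPM in shBrpf1. They were high in CA1 shBrpf1 2 and low in CA1 shBrpf1 1 and 3, while the highest sum of all was in CA1 scramble 1. Listed microglia markers summed to 837, 638 and 532 CPM and 757, 773 and 594 CPM in CA1, without a gap between the viruses. T cell and leukocyte markers summed to 33.5, 19.5 and 10.4 CPM and 12.7, 34.3 and 16.7 CPM. The part of these cells in the interferon values was not tested.

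**Figure D3:**
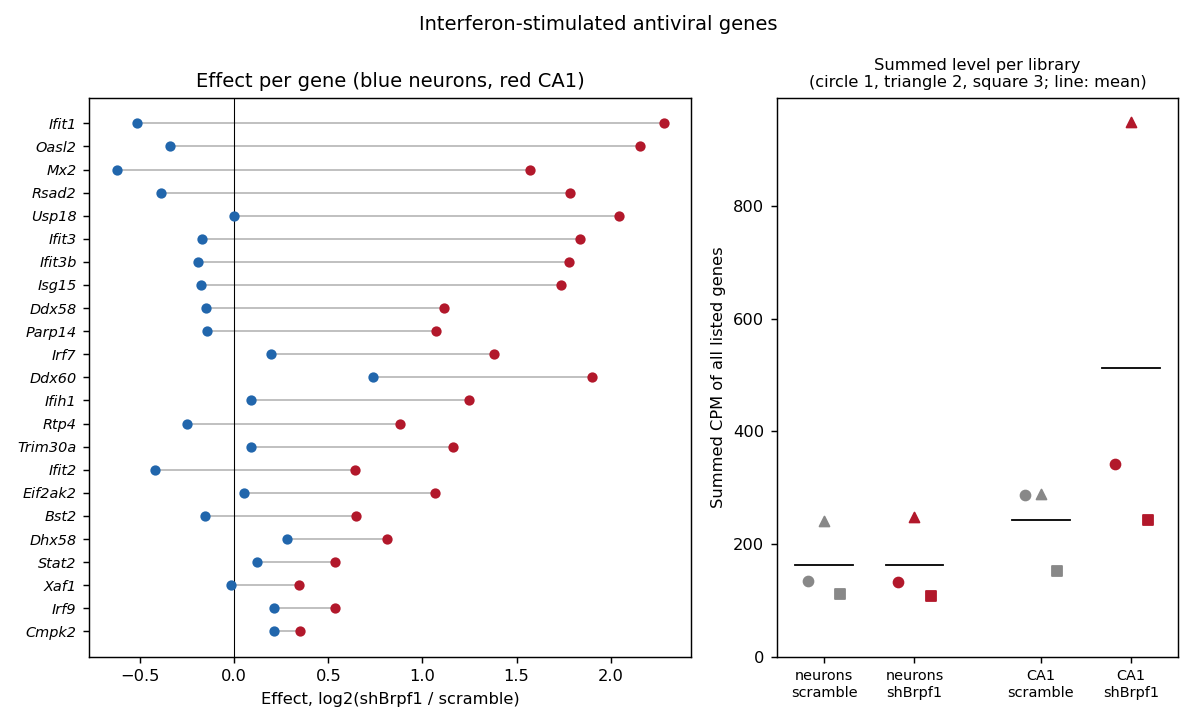
Left, knockdown effect (log2 of shBrpf1 over scramble) of each of 23 of the 24 tested interferon-stimulated antiviral genes in neurons (blue) and CA1 (red), ordered by the difference. Right, summed CPM of all listed genes in each library, with a line at the mean of 3. CA1 shBrpf1 2 stands at 949 CPM, and the other 11 libraries lie between 108 and 343 CPM.

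Promoters of many of these genes carry the element through which interferon acts, and 3 are shown because their genes had among the largest differences. The motif GAAANNGAAA was searched on both strands (TTTCNNTTTC on the other) from 250 bases before to 50 after the start of transcription in RefSeq's promoters (GRCm38.p6). It was in 12 of 18 tested antiviral genes with a promoter entry (66.7%), in 3.38% of 11185 tested genes with one and in 3.99% of all 27025. The 140 bases before the start site of each gene follow, 5′ to 3′ on the strand of the gene, with the motif in capitals.
Rsad2, chr12:26456453-26456592, reverse strand: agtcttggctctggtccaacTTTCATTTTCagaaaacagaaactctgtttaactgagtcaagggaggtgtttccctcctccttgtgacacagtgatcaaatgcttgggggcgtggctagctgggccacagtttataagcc
Ifit1, chr19:34640749-34640888, forward strand: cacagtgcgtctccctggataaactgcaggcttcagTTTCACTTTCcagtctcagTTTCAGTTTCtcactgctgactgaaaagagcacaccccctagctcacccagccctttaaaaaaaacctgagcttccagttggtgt
Ifit3, chr19:34583389-34583528, forward strand: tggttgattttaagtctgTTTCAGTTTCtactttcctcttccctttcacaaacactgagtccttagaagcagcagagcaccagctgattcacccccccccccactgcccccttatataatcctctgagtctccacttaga
A second match of Ifit3 lies before the stretch shown, at -156 to -147 from the start site, and that of Cxcl10 lies at -213 to -204. A match describes these letters and is no evidence of binding. The listed genes are known targets of interferon, so a high share with its element was fixed in advance. The comparison of shares therefore tests nothing in these data.

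Other genes that interferon induces had smaller differences that did not outlast the removal of CA1 shBrpf1 2. Interferon-inducible GTPases, which attack the vacuoles of intracellular pathogens, had 12 of 15 members tested, 10 of them with a difference above 0 (median 0.68). Without CA1 shBrpf1 2 the median was -0.93, and without neurons scramble 2 it was -0.56. The member with the lowest p for the difference, Gbp7, stood at 7.002, 13.3 and 1.36 CPM in the scramble libraries of neurons and 2.94, 11.6 and 1.42 CPM in their shBrpf1 libraries. In the CA1 tissue it was at 7.74, 14.3 and 4.93 CPM with scramble and 11.2, 37.7 and 6.26 CPM with shBrpf1, a difference of 1.47 ± 1.29 (unadjusted p = 0.276, with the block unadjusted p = 0.0165), highest in CA1 shBrpf1 2. Genes of MHC class I and antigen processing had 21 of 23 members tested and 17 with a difference above 0 (median 0.53). That median was -0.085 without CA1 shBrpf1 2 and 0.020 without neurons scramble 2. An unadjusted p under 0.05 was found for 0 members of either list in the fit without pairs, and with the block for 1 GTPase gene and 0 MHC genes, beside 2.22% of all genes.

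Genes with a shared response were called where the mean effect was called and both effects had its sign and a size of at least 0.5. In 11 genes both were higher and in 8 both were lower. Of those with the lowest p and at least 1 CPM in a group, 11 are described, and of these 11 the call of Zbtb20 alone held without any single library. Also higher in both, and named after their values were seen, were Plau, Fgd4, Pcdhb2, Efcab5 and Ccdc110 (the last under 1 CPM). Also lower in both were the genes 2310034G01Rik and 1700124L16Rik, both under 1 CPM in every group.

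**Figure D4:**
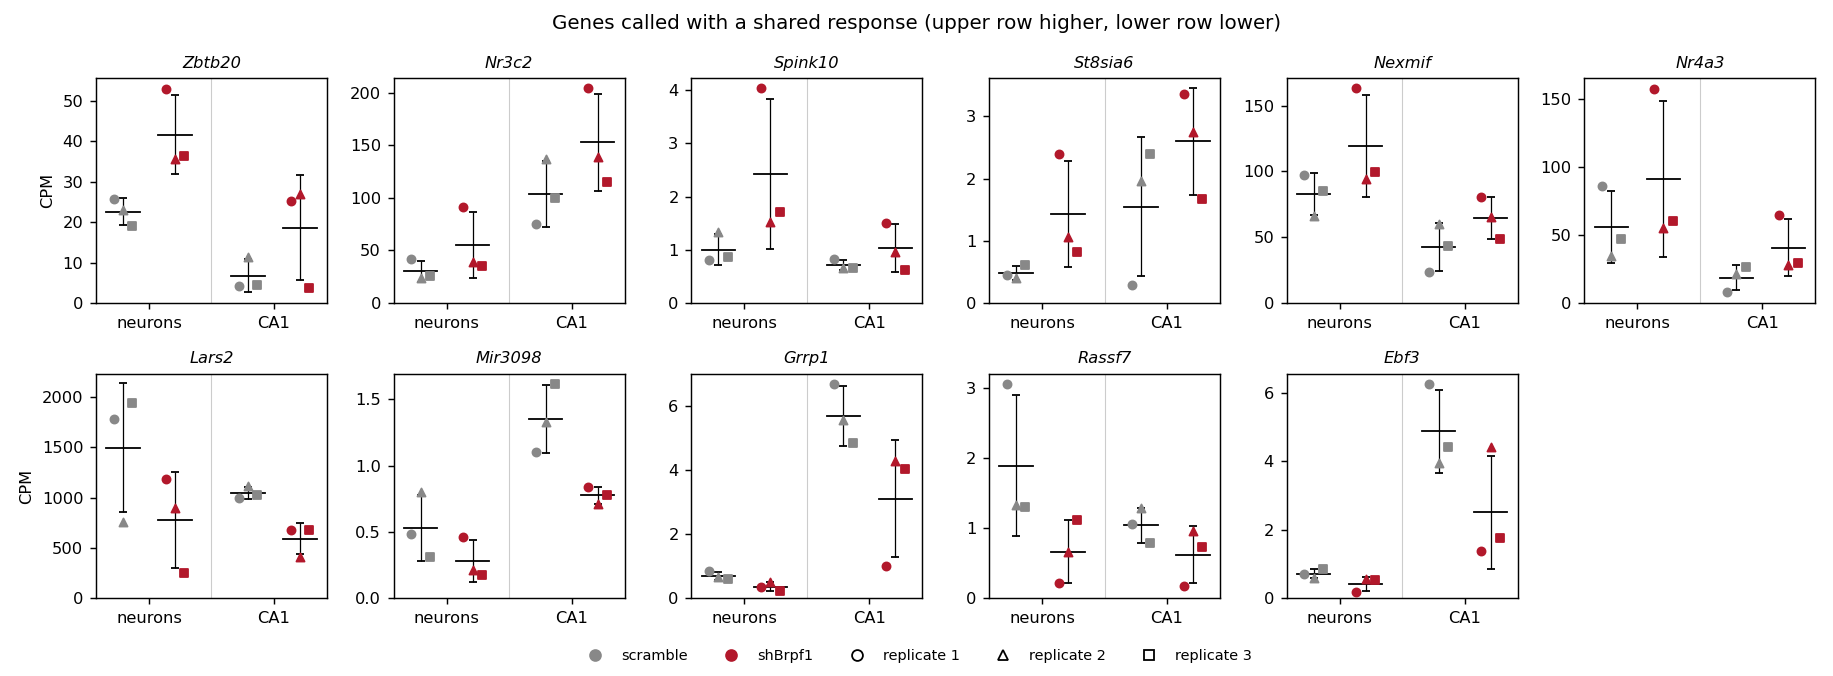
CPM of the 11 described genes with a shared response in each library (grey scramble, red shBrpf1, with circle, triangle and square for replicates 1, 2 and 3), the upper row higher and the lower row lower with shBrpf1 in both experiments. Bars are the mean and SD of 3 libraries and each y axis starts at 0. For Zbtb20, CA1 shBrpf1 3 (3.68 CPM) lies below the scramble libraries of CA1.

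Zbtb20 encodes a zinc finger repressor that sets the identity of CA1 pyramidal neurons in the developing hippocampus. It stood at 25.7, 23.1 and 19.1 CPM in the scramble libraries of neurons and 53.03, 35.6 and 36.4 CPM in their shBrpf1 libraries. The CA1 libraries were at 4.28, 11.4 and 4.56 CPM with scramble and 25.2, 27.01 and 3.68 CPM with shBrpf1. The neuron groups did not overlap. In CA1, shBrpf1 1 and 2 were above all scramble libraries and shBrpf1 3 was below them. The effects were 0.88 ± 0.58 and 1.46 ± 0.59, with a mean of 1.17 ± 0.42 (unadjusted p = 0.0159), which ran from 0.99 to 1.47 with a library left out.

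Nr3c2 is the mineralocorticoid receptor, which binds corticosterone in hippocampal neurons. It stood at 41.5, 23.6 and 25.3 CPM in the scramble libraries of neurons and 91.3, 38.9 and 34.9 CPM in their shBrpf1 libraries. Its CA1 level was 74.8, 137 and 99.9 CPM with scramble and 205, 139 and 115 CPM with shBrpf1. Its mean effect was 0.71 ± 0.28 (unadjusted p = 0.0253). Nr4a3, an orphan nuclear receptor and immediate early gene, stood at 85.7, 34.6 and 46.9 CPM in the scramble libraries of neurons and 157, 55.1 and 60.5 CPM in their shBrpf1 libraries. CA1 libraries stood at 8.23, 21.5 and 26.2 CPM with scramble and 64.6, 27.7 and 29.5 CPM with shBrpf1. The mean of both effects was 0.91 ± 0.38 (unadjusted p = 0.036). Both were highest in replicate 1 of shBrpf1 in each experiment, and within each number shBrpf1 was above scramble in 6 of 6. Such counts only describe the libraries, here and below. The genes were selected by their p, and the numbers did not pair the CA1 libraries by the check described with the processing. The call of Nr3c2 was lost without neurons scramble 2 or 3, neurons shBrpf1 1, CA1 scramble 1 or CA1 shBrpf1 1, with values between 0.43 and 0.66 and p up to 0.086. That of Nr4a3 was lost without neurons scramble 2 or 3, neurons shBrpf1 1, CA1 scramble 1 or CA1 shBrpf1 1, with values between 0.59 and 0.86 and p up to 0.127.

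Nexmif, an X-linked gene of neurite extension whose loss causes intellectual disability, stood at 97.5, 65.8 and 84.7 CPM in the scramble libraries of neurons and 164, 94.4 and 99.5 CPM in their shBrpf1 libraries. In CA1 it stood at 23.9, 60.02 and 43.3 CPM with scramble and 80.6, 65.02 and 48.3 CPM with shBrpf1. Its mean effect was 0.57 ± 0.24 (unadjusted p = 0.0348), and shBrpf1 was above scramble in 6 of 6 numbers. St8sia6, a sialyltransferase, stood at 0.443, 0.399 and 0.618 CPM in the scramble libraries of neurons and 2.40, 1.06 and 0.826 CPM in their shBrpf1 libraries. The CA1 level was 0.289, 1.95 and 2.40 CPM with scramble and 3.37, 2.75 and 1.68 CPM with shBrpf1, where scramble 1 was far below the other scramble libraries. The mean of both effects was 1.15 ± 0.48 (unadjusted p = 0.0333). Spink10, an inhibitor of serine proteases, stood at 0.805, 1.33 and 0.866 CPM in the scramble libraries of neurons and 4.05, 1.52 and 1.71 CPM in their shBrpf1 libraries. In CA1 its level was 0.818, 0.665 and 0.663 CPM with scramble and 1.51, 0.959 and 0.614 CPM with shBrpf1, with a mean effect of 0.89 ± 0.35 (unadjusted p = 0.0271). Nexmif lost its call without neurons scramble 2 or 3, neurons shBrpf1 1, CA1 scramble 1 or 3 or CA1 shBrpf1 1 or 2, with values between 0.42 and 0.58 and p up to 0.0994. St8sia6 lost it without neurons scramble 1 or 2, neurons shBrpf1 1 or CA1 shBrpf1 1 or 2, with values between 0.85 and 1.13 and p up to 0.105. Spink10 lost it without neurons scramble 1 or 3, neurons shBrpf1 1, CA1 scramble 2 or 3 or CA1 shBrpf1 1, with values between 0.60 and 0.87 and p up to 0.0951. Spink10 was also outside the shared class with the block.

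Lars2 encodes the leucyl-tRNA synthetase of mitochondria. It stood at 1778, 759.5 and 1938 CPM in the scramble libraries of neurons and 1183, 893 and 252 CPM in their shBrpf1 libraries. The level in CA1 was 998, 1110.0 and 1021 CPM with scramble and 674, 413 and 683 CPM with shBrpf1. The CA1 groups did not overlap, and in neurons the lowest value by far was that of shBrpf1 3. Its mean effect was -0.88 ± 0.35 (unadjusted p = 0.0272). The call was lost without neurons scramble 1 or 3 or CA1 shBrpf1 2, with values between -0.81 and -0.77 and p up to 0.0644. Rn45s, the precursor of ribosomal RNA, moved with it in the same neuron libraries, at 6617, 3376 and 40120.0 CPM with scramble and 6742, 3928 and 1029 CPM with shBrpf1. In CA1 it was at 6466, 4550.0 and 5250.0 CPM and 3920.0, 2009 and 3694 CPM, lowest in shBrpf1 2 as was Lars2. Its part in the values of Lars2 was not tested.

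Ebf3, a transcription factor of neuronal differentiation, stood at 0.724, 0.599 and 0.866 CPM in the scramble libraries of neurons and 0.179, 0.564 and 0.531 CPM in their shBrpf1 libraries. In the CA1 tissue it was at 6.25, 3.95 and 4.43 CPM with scramble and 1.37, 4.42 and 1.76 CPM with shBrpf1, with a mean effect of -0.87 ± 0.38 (unadjusted p = 0.0439). Grrp1, a glycine- and arginine-rich protein, stood at 0.845, 0.665 and 0.618 CPM in the scramble libraries of neurons and 0.358, 0.529 and 0.236 CPM in their shBrpf1 libraries. The CA1 libraries were at 6.69, 5.57 and 4.85 CPM with scramble and 1.02, 4.29 and 4.05 CPM with shBrpf1, and for this gene the groups did not overlap in either experiment (mean effect -0.88 ± 0.37, unadjusted p = 0.0352). Rassf7, a protein with a Ras association domain, stood at 3.06, 1.33 and 1.30 CPM in the scramble libraries of neurons and 0.215, 0.669 and 1.12 CPM in their shBrpf1 libraries. Its CA1 level was 1.06, 1.29 and 0.787 CPM with scramble and 0.177, 0.959 and 0.736 CPM with shBrpf1, with a mean effect of -1.13 ± 0.48 (unadjusted p = 0.0375). The entry Mir3098, a microRNA gene, was under 1 CPM in neurons and at 1.11, 1.33 and 1.62 CPM with scramble and 0.841, 0.709 and 0.777 CPM with shBrpf1 in CA1, with a mean effect of -0.84 ± 0.34 (unadjusted p = 0.0317). All of these are low in neurons, mostly under 1 CPM. Ebf3 lost its call without neurons scramble 1 or 3, neurons shBrpf1 1, CA1 scramble 1 or 3 or CA1 shBrpf1 1 or 3, with values between -0.90 and -0.68 and p up to 0.095. Grrp1 lost its call without neurons scramble 1, neurons shBrpf1 1 or 3 or CA1 scramble 1 or 2, with values between -0.89 and -0.77 and p up to 0.0745. Rassf7 lost its call without neurons scramble 1, neurons shBrpf1 1 or 2, CA1 scramble 1 or 2 or CA1 shBrpf1 1 or 3, with values between -1.20 and -0.87 and p up to 0.105. Mir3098 lost its call without neurons scramble 2, neurons shBrpf1 2 or 3, CA1 scramble 3 or CA1 shBrpf1 2 or 3, with values between -0.85 and -0.63 and p up to 0.108.

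With the block, the shared classes held 31 genes higher and 23 lower in both, among them 8 of the 11 and 8 of the 8 genes above. With each library's length trend removed and no block, 9 of the 11 and 6 of the 8 genes stayed in their class. With the trend removed and the block, 5 of the 11 and 5 of the 8 did. Of the fits with all libraries and no removal of the trend, edgeR put Grin2a and Grin2b, which are described next, in the shared class with the block only.

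Among the genes that the study named or measured, 19 of 27 passed the filter in both experiments. The other 8 (Htr1d, Glra1, Gpr139, Uncx, Syce1l, Syce1, Brs3 and Cst7) had too few counts in an experiment and were not tested. Uncx, a homeobox gene, is an example, with 0 counts in all 6 neuron libraries and 1.49, 0.624 and 0.911 CPM against 0, 0.167 and 0.409 CPM in CA1. Grin2a and Grin2b, which encode the glutamate-binding subunits of NMDA receptors, were higher in both experiments on average. Grin2a stood at 29.8, 6.95 and 21.5 CPM in the scramble libraries of neurons and 56.00, 12.3 and 33.6 CPM in their shBrpf1 libraries. CA1 libraries stood at 7.89, 64.01 and 25.3 CPM with scramble and 117, 93.7 and 24.9 CPM with shBrpf1. The low value of CA1 scramble 1 and the near-equal values of the third CA1 number stand out. The mean of both effects was 1.04 ± 0.57 (unadjusted p = 0.0925), and 1.06 with the block (unadjusted p = 0.0424). Grin2b stood at 121, 30.2 and 125 CPM in the scramble libraries of neurons and 176, 58.8 and 159.8 CPM in their shBrpf1 libraries. In CA1 it stood at 16.9, 61.02 and 20.8 CPM with scramble and 141, 111 and 19.96 CPM with shBrpf1. Its mean effect was 0.99 ± 0.53 (unadjusted p = 0.0879), and 0.94 with the block (unadjusted p = 0.0244). The differences between the experiments, 0.47 ± 1.13 and 0.94 ± 1.05, were within their errors.

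C1ql1, a secreted synapse organizer, and Gpr17, a receptor of maturing oligodendrocyte precursors, varied far more between numbers than between viruses in neurons. C1ql1 stood at 13.6, 18.7 and 46.8 CPM in the scramble libraries of neurons and 1.04, 9.62 and 43.6 CPM in their shBrpf1 libraries. The CA1 level was 15.1, 11.1 and 12.1 CPM with scramble and 9.30, 8.96 and 11.8 CPM with shBrpf1. Gpr17 stood at 49.4, 9.58 and 572 CPM in the scramble libraries of neurons and 0.286, 1.90 and 568 CPM in their shBrpf1 libraries. In CA1 its level was 63.6, 59.4 and 24.3 CPM with scramble and 62.00, 64.1 and 21.03 CPM with shBrpf1. Within numbers, shBrpf1 was below scramble in 3 of 3 neuron comparisons for both genes, by most in replicate 1. The difference between the experiments was 0.21 ± 1.22 for C1ql1 and 0.15 ± 2.56 for Gpr17 (with the block 1.04, unadjusted p = 0.207, and 2.46, unadjusted p = 0.106). Kcnh7, an ether-a-go-go-related potassium channel, had an effect of 1.68 ± 0.84 in CA1 and -0.10 ± 0.83 in neurons, a difference of 1.78 ± 1.18 (unadjusted p = 0.157). Efna1, an ephrin ligand, was at 3.26, 2.93 and 0.804 CPM in the scramble libraries of neurons and 0.680, 1.52 and 0.295 CPM in their shBrpf1 libraries. In CA1 it was at 5.87, 6.36 and 6.88 CPM with scramble and 3.19, 4.96 and 7.49 CPM with shBrpf1. Its mean effect over both experiments was -0.88 ± 0.42 (unadjusted p = 0.0611, with the block -0.95, unadjusted p = 0.00426), but its effect was -1.47 in neurons and only -0.29 ± 0.58 in CA1. The difference for Efna1 was 1.18 ± 0.84 (edgeR, unadjusted p = 0.188, with the block 1.17, unadjusted p = 0.0413). For the other 11 study genes apart from Brpf1 and Cxcl10, the differences ran from -0.98 (Calml4) to 0.66 (Htr2c), all within 1 standard error of 0 without the block. With the block, Cck, a neuropeptide of interneurons and some pyramidal cells, had -0.76 ± 0.35 (unadjusted p = 0.0574), Zfp488, a regulator of oligodendrocytes, 1.29 ± 1.02 (unadjusted p = 0.24) and Calml4, a calmodulin-like protein, -2.13 ± 1.84 (unadjusted p = 0.278).

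Gene lists of pathways and cell types were described by their medians and counts. A wide gap was also found in immediate early genes, the transcription factors and effectors that firing induces. Of 24 listed, 22 were tested and 21 had a difference above 0 (median 0.61, with 0.17 in CA1 and -0.39 in neurons). For 15 the signs were opposite, with CA1 higher and neurons lower. This too rested on 1 library, since the median difference was -0.24 without neurons scramble 1. Nptx2, a pentraxin that clusters AMPA receptors, shows it, with 72.03, 10.8 and 16.5 CPM in the scramble libraries of neurons and 15.3, 10.6 and 19.9 CPM in their shBrpf1 libraries. In CA1 Nptx2 stood at 43.2, 30.9 and 34.8 CPM with scramble and 60.5, 33.5 and 39.6 CPM with shBrpf1, a difference of 1.42 ± 0.80 (unadjusted p = 0.105). Dusp1, a phosphatase of MAP kinases, was at 42.4, 9.28 and 11.3 CPM in the scramble libraries of neurons and 13.2, 6.20 and 9.79 CPM in their shBrpf1 libraries, with a difference of 1.25 ± 0.84 (unadjusted p = 0.162, with the block 0.97, unadjusted p = 0.0247). Egr3, a zinc finger factor, was above scramble in 6 of 6 numbers, with a mean effect of 0.53 ± 0.38 (unadjusted p = 0.184, with the block unadjusted p = 0.0144).

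Markers of the pyramidal fields differed in direction. CA2 and CA3 markers (17 of 18 tested) had a median effect of -0.29 in CA1 and 0.051 in neurons. The difference was below 0 for 12 of 17 (median -0.43, -0.86 to -0.18 with a library left out), and its unadjusted p was under 0.05 for 1 member, Pcp4, and for 7 with the block, all lower, beside 0.165% and 2.22% of all genes in either direction. Cacng5, an auxiliary subunit of AMPA receptors enriched in CA2, stood at 28.6, 13.9 and 27.6 CPM in the scramble libraries of neurons and 21.9, 13.9 and 21.5 CPM in their shBrpf1 libraries. The level in CA1 was 35.02, 28.5 and 21.3 CPM with scramble and 8.72, 17.1 and 13.3 CPM with shBrpf1, where the groups did not overlap. Its mean effect of -0.70 ± 0.24 (unadjusted p = 0.0122) was called whichever library was left out (-0.84 to -0.59), but its effect in neurons was only -0.29. Grik4, a kainate receptor subunit of CA3, had a difference of -0.67 ± 0.35 (unadjusted p = 0.0764, with the block -0.62, unadjusted p = 0.0232). CA1 pyramidal markers (13 of 16 tested) had the opposite tendency, with a difference above 0 for 10 of 13 (median 0.50). It ran from -0.040 to 0.80 with a library left out, the lowest without neurons scramble 3. Pou3f1, a POU-domain factor of CA1, stood at 19.3, 10.4 and 15.7 CPM in the scramble libraries of neurons and 12.3, 7.43 and 11.7 CPM in their shBrpf1 libraries. In CA1 Pou3f1 stood at 104, 102 and 56.6 CPM with scramble and 117, 84.9 and 117 CPM with shBrpf1, a difference of 0.81 ± 0.42 (unadjusted p = 0.0821). Which share of CA1 and of the neighbouring fields each dissection held is not given, and its part in these values was not tested.

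Pan-neuronal genes (20 of 20 tested) had a median effect of 0.21 in neurons and -0.083 in CA1, and the difference was below 0 for 16 of 20 (median -0.34). With the block it had an unadjusted p under 0.05 for 6, all lower, beside 2.22% of all genes in either direction. Examples are Stmn2, a regulator of microtubules in axons (-0.62, unadjusted p = 0.0318), and Uchl1, a neuronal deubiquitinase (-0.59, unadjusted p = 0.0425). The median was 0.015 without neurons scramble 2, the neuron library with the lowest summed level of these genes (4981 CPM, against 6908 CPM in shBrpf1 2 and 9654 to 12910.0 CPM in the other neuron libraries). Neural progenitor and cell cycle genes had a difference above 0 for 19 of 22 (median 0.30), but the median ran from 0.051 without neurons shBrpf1 1 to 0.69 without neurons scramble 1. Neurog2, a proneural factor, stood at 6.72, 6.59 and 4.58 CPM in the scramble libraries of neurons and 5.23, 5.74 and 4.13 CPM in their shBrpf1 libraries. In the CA1 tissue it was at 1.92, 1.46 and 2.15 CPM with scramble and 2.61, 2.88 and 3.80 CPM with shBrpf1, with no overlap in CA1 and a difference of 0.99 ± 0.45 (unadjusted p = 0.0494, with the block unadjusted p = 0.0182), just short of a call. Astrocyte markers had a difference above 0 for 20 of 22 (median 0.29), with a lower median in neurons (-0.24) than in CA1 (-0.0023). Without neurons shBrpf1 1 the median difference was 0.052 and the median effect in neurons 0.025. Tagln, an actin-binding protein of smooth muscle, and the vascular marker that the naming rule selects, had a difference of 2.46 ± 1.11 (unadjusted p = 0.0481). It stood at 29.1, 6.78 and 1.36 CPM in the scramble libraries of neurons and 2.22, 4.02 and 2.06 CPM in their shBrpf1 libraries, and the difference was 0.87 without neurons scramble 1. The vascular and meningeal markers as a list had a difference below 0 for 14 of 22 (median -0.25, -0.74 to 0.21 with a library left out).

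Housekeeping genes of short transcripts showed a small and uniform gap. All 58 tested nuclear genes of the respiratory chain had a difference below 0 (median -0.38, -0.58 to -0.22 with a library left out). For 38 of them the signs were opposite, with CA1 lower and neurons higher. Ndufa1, a subunit of complex I, stood at 19.2, 29.4 and 24.7 CPM in the scramble libraries of neurons and 28.1, 28.1 and 26.1 CPM in their shBrpf1 libraries. The CA1 libraries were at 57.04, 30.97 and 43.3 CPM with scramble and 32.5, 27.8 and 35.6 CPM with shBrpf1, a difference of -0.62 ± 0.33 (unadjusted p = 0.084, with the block unadjusted p = 0.041). All 75 tested cytosolic ribosomal protein genes also had a difference below 0 (median -0.24, -0.45 to -0.029 with a library left out), and 69 of them were lower in both experiments (median mean effect -0.22). Over all genes, 51.51% had a difference above 0. These values moved with transcript length. The effect correlated with the length of the gene in the tables at Spearman rho = 0.54 in CA1 and 0.14 in neurons (0.35 for the difference and 0.46 for the mean, across genes). In CA1 the median effect was -0.22 in the 2917 genes with the shortest transcripts and 0.21 in the 2916 with the longest. The longest genes were furthest below the shortest in CA1 scramble 1, by -0.72 (log2, relative to the group mean of each gene), against -0.31 to 0.40 in the other 11 libraries. With each library's length trend removed, the median difference was -0.17 for the respiratory chain and -0.031 for ribosomal proteins. Cholesterol synthesis had a difference below 0 for 20 of 22 genes (median -0.22, but 0.018 without neurons shBrpf1 1), with -0.60 ± 0.28 for Ebp and -0.73 ± 0.35 for Nsdhl, enzymes of its late steps (unadjusted p = 0.0532 and 0.0587).

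Small mean effects above 0 were found in the lists of axon guidance, ion channels, inhibitory receptors and the postsynaptic density, and mean effects below 0 in that of hypoxia and glycolysis. Over all genes 47.09% of mean effects were above 0, with a median of -0.013. Of 45 tested axon guidance genes, 32 had a mean effect above 0 (median 0.20, 0.13 to 0.31 with a library left out) and 28 had the same sign in both experiments. With the block, 14 had an unadjusted p under 0.05 for a higher mean and 1 for a lower one, beside 4.41% of all genes in either direction. Dcc, the netrin receptor, stood at 82.01, 52.8 and 92.2 CPM in the scramble libraries of neurons and 93.5, 75.5 and 119 CPM in their shBrpf1 libraries. Its CA1 level was 15.4, 31.6 and 33.7 CPM with scramble and 50.4, 36.01 and 37.2 CPM with shBrpf1, and the groups did not overlap there (mean effect 0.48 ± 0.22, unadjusted p = 0.0508, with the block unadjusted p = 0.0306). Plxna4, a semaphorin receptor, had a mean effect of 0.50 ± 0.23 (unadjusted p = 0.0522, with the block unadjusted p = 0.0148) and was higher with shBrpf1 in 6 of 6 numbers. Ntn4, a netrin, went the other way, lower in neurons (-0.43) and higher in CA1 (0.57), where its groups did not overlap (difference 1.00 ± 0.45, unadjusted p = 0.0476).

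Voltage-gated sodium and calcium channels had a mean effect above 0 for 22 of 28 genes (median 0.18) and potassium channels for 30 of 40 (median 0.17). GABA and glycine receptors had it for 12 of 16 (median 0.21) and genes of the postsynaptic density for 27 of 32 (median 0.19). No member of these 4 lists had an unadjusted p under 0.05 unless the block was used, and then 7, 9, 5 and 6 members were higher and 1, 1, 0 and 0 lower, beside 4.41% of all genes in either direction. Cacna1b, which forms a presynaptic calcium channel, had a mean effect of 0.51 ± 0.29 (unadjusted p = 0.105, with the block unadjusted p = 0.03). It stood at 127, 56.3 and 114 CPM in the scramble libraries of neurons and 197, 92.7 and 128 CPM in their shBrpf1 libraries. CA1 libraries stood at 35.9, 96.2 and 62.1 CPM with scramble and 114, 96.1 and 68.6 CPM with shBrpf1. The value of CA1 scramble 1 was the lowest of the 12 libraries. Homer2, a scaffold that ties metabotropic glutamate receptors to calcium stores, had a mean effect of 0.47 ± 0.25 (unadjusted p = 0.0812, with the block unadjusted p = 0.0143). Cacna2d2, an auxiliary calcium channel subunit, went the other way at -0.54 ± 0.33 (unadjusted p = 0.13). Many of these transcripts are long, and with the length trend removed the median mean effects were 0.093, 0.10, 0.20 and 0.10 for the 4 lists and 0.13 for axon guidance. The median effects in CA1 were then 0.068, 0.055, 0.17 and -0.015 for the 4 lists and 0.031 for axon guidance, in place of 0.14, 0.13, 0.23, 0.13 and 0.23. Without neurons shBrpf1 1 the median mean effects of the 4 lists were 0.024, 0.050, 0.069 and 0.053, and their median effects in neurons were -0.053, -0.052, -0.032 and -0.030, below 0. Without neurons scramble 2 the median effects in neurons were -0.10, -0.17, -0.12 and 0.030.

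Mdga1, which limits synapses by binding neuroligins, was the one synaptic adhesion gene with an unadjusted p under 0.05 for the mean effect (0.63 ± 0.28, unadjusted p = 0.0459), but its effect was 1.23 in neurons and 0.027 in CA1. It stood at 58.9, 48.2 and 56.95 CPM in the scramble libraries of neurons and 239, 77.4 and 68.99 CPM in their shBrpf1 libraries, and its mean effect was 0.22 without neurons shBrpf1 1. Of 26 tested genes of hypoxia and glycolysis, 0 had a mean effect above 0 and 20 were lower in both experiments (median -0.23, -0.38 to -0.10 with a library left out). Slc2a1, the glucose transporter of brain endothelium and glia, had -0.40 ± 0.26 (unadjusted p = 0.147). No gene of that list had an unadjusted p under 0.05 for the mean effect, and with the block 1 did, lower, beside 4.41% of all genes. Chac1, which breaks down glutathione in the integrated stress response, was called lower on average. It stood at 15.2, 11.4 and 11.1 CPM in the scramble libraries of neurons and 12.5, 8.14 and 7.25 CPM in their shBrpf1 libraries. In CA1 it stood at 7.36, 5.57 and 4.97 CPM with scramble and 3.76, 3.46 and 4.42 CPM with shBrpf1, where the groups did not overlap. The mean of both effects was -0.53 ± 0.20 (unadjusted p = 0.0234). The call was lost without neurons scramble 1, neurons shBrpf1 2 or 3, CA1 scramble 1 or CA1 shBrpf1 2, with values between -0.49 and -0.44 and p up to 0.0601.

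The partners of BRPF1 differed little between the viruses. Of 9 genes of its complex and its paralogs, 8 had effects of the same sign in both experiments, 5 higher and 3 lower, with mean effects of little size (median 0.071). Ing4, which encodes an ING-family reader of methylated histone H3, stood at 47.9, 45.1 and 56.6 CPM in the scramble libraries of neurons and 32.3, 39.4 and 49.4 CPM in their shBrpf1 libraries. The CA1 level was 40.5, 41.2 and 36.5 CPM with scramble and 30.5, 36.9 and 32.7 CPM with shBrpf1. It was lower with shBrpf1 in 6 of 6 numbers, with a mean effect of -0.27 ± 0.13 (unadjusted p = 0.0568, with the block -0.28, unadjusted p = 0.0161). The acetyltransferase Kat6b had 0.24 ± 0.17 (unadjusted p = 0.198).

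**Figure D5:**
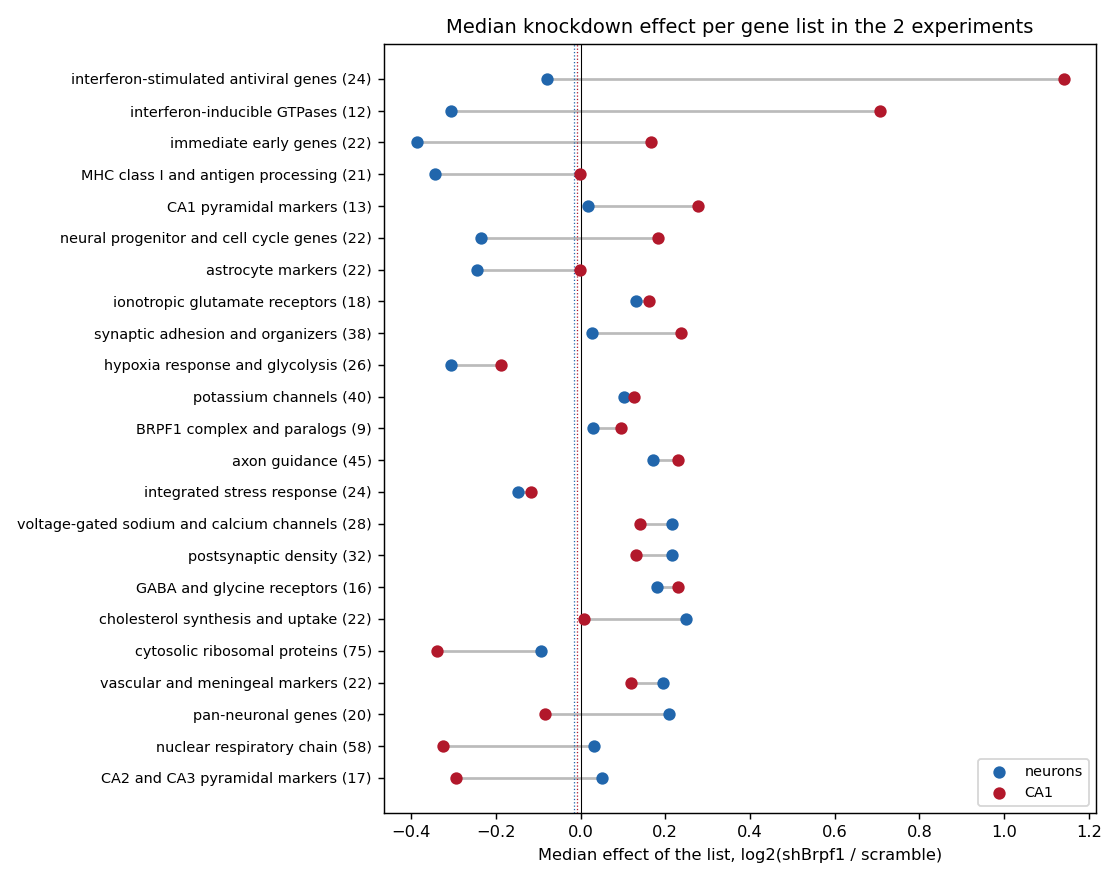
Median knockdown effect (log2 of shBrpf1 over scramble) of the described gene lists in neurons (blue) and CA1 (red), ordered by the median difference, with the number of tested genes in parentheses. Dotted lines mark the medians over all genes, at -0.015 in neurons and -0.0082 in CA1. The interferon-stimulated antiviral genes have the widest gap, from -0.080 to 1.14.

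The labels call the source of all 12 libraries neural progenitor cells. Slc17a7, a glutamate transporter of pyramidal neurons, was at 185 to 1249 CPM in neurons and at 1155 to 1791 CPM in CA1. Mki67 and Nes, markers of dividing cells and of progenitors, were at 19.3 to 202 CPM and 61.6 to 269.5 CPM in neurons but at 1.55 to 10.1 CPM and 9.07 to 15.5 CPM in CA1, which goes against that label for the tissue. P2ry12, a microglial receptor, was at 0 to 0.898 CPM in neurons and at 26.5 to 42.2 CPM in CA1. These marker genes were chosen for the cell types they define. Oligodendrocyte precursor genes summed to 1579, 3323 and 6824 CPM in the scramble and 1686, 2286 and 6889 CPM in the shBrpf1 cultures, so that their level differed by number more than by virus. Their median effect in neurons was -0.21, and -1.14 with the block. In CA1 it was -0.12, and -0.042 with the block, which moved the median difference from 0.21 to 1.09. With a library left out and no block it ran from -0.74 without neurons scramble 3 to 2.23 without neurons shBrpf1 3.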

How the data were processed

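RNA-seq of 12 libraries was analysed, 3 per group. Per the study's methods, the authors sequenced paired ends, used STAR as the aligner, and deposited read counts per gene ID from StringTie. The labels name mm9 as the build and give no versions, and the kit and its strand setting are not given in the sources used here. The deposited counts were used unrounded and unnormalized, and gene symbols were matched by ID for all but 1886 of 27179 IDs. IDs placed on no chromosome (2.44% of counts) were left out. Chromosomes 13 and Y were left out because the CA1 tables hold 0 counts on all their IDs.

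Genes with at least 10 counts in 3 of the 6 libraries of each experiment were fitted in edgeR 4.0.16 (R 4.3.3; TMM, robust quasi-likelihood test, two-sided) with a mean for each of 4 groups and all 12 libraries. The contrasts were the effect in CA1 minus that in neurons and the mean of both, with Benjamini-Hochberg adjustment over all 14577 genes. The fit shares 1 dispersion (estimate of spread) per gene between the experiments. Fitted apart, the coefficient of variation between libraries was 0.44 in neurons and 0.258 in CA1. Standard errors and p-values given for 1 experiment therefore do not measure the spread of that experiment alone. DESeq2 1.42.0 and limma 3.58.1 were alternatives. No gene passed after adjustment, so calls are unadjusted. The script was tested on simulated data with the same dispersion in both experiments and no pairs. That test does not cover the unequal spread of these experiments or the pairing of the cultures.

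Whether replicate numbers pair libraries was checked by correlating deviations from the group means. In neurons, same numbers correlated at 0.528, 0.88 and 0.84 and different numbers at -0.751 to -0.184, so the numbers pair the cultures. The study's methods also speak of pairs of cultures. In CA1, same numbers correlated at -0.34, 0.19 and 0.311 and different numbers at -0.511 to 0.37, which does not pair them by this check. Both virus libraries of CA1 number 3 held Xist, the RNA of the inactive X chromosome of females, at 829 and 832 CPM, and those of numbers 1 and 2 at 0.417 to 1.02 CPM, and the study speaks of pairs of injected tissues, but no source says that a number is 1 mouse. Block values are given beside the others.

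Named genes were those of the study, up to 8 per opposite class and 6 per shared class with the lowest p and at least 1 CPM in a group, and up to 4 per described list of 40 lists. A gene that the rule selects is not reported here. Members, lists and tests were chosen with earlier results of these data known, and the exact test planned for summed markers is therefore not given. Genes that share sequence or overlap, such as protocadherins, interferon and MHC families, are uncertain.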

Additional observations from a re-analysis of the deposited data

Results flagged for a closer look

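The difference between the experiments had an unadjusted p under 0.05 in edgeR's interaction test and a size of at least 1 for 9 named genes, none of which passed adjustment. It was -1.97 for Slc12a8, -2.01 for Calb2 and -1.58 for Pcp4, lower in CA1 than in neurons. It was 3.65 for Cxcl10, 4.49 for Ltbp2, 1.98 for Thbs1, 1.37 for Pcgf5, 2.45 for Pappa and 2.46 for Tagln, higher in CA1 than in neurons. The differences of Slc12a8 and Calb2 kept their calls without any single library, although for Calb2 the higher mean of shBrpf1 in neurons rested on shBrpf1 1.

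Counts outside every comparison lie on chromosomes 13 and Y. The neuron libraries held at least 570887 counts each on chromosome 13 and at least 38898 on chromosome Y, whereas the CA1 libraries held 0 on all 972 and 116 gene IDs of these chromosomes. Responses of these genes could therefore not be compared.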

How the results depend on the processing

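The limits are the size of the groups and the libraries that stand apart. With 3 libraries per group and a typical standard error of 0.42, few differences under 1 (log2) could be detected at this depth. Of 3068 values of named genes under 30 alternatives, 2520 kept direction and side of the threshold, 209 lost a call, 258 gained one and 81 reversed, and of 4792 list medians 45 moved by more than the spread between replicates. That spread, the SD of a list's level between libraries of a group, was wide, and changes of sign were not counted. It was 1.17 for the antiviral genes and 1.62 for the interferon-inducible GTPases. Their median differences fell from 1.16 to 0.28 and from 0.68 to -0.93 without CA1 shBrpf1 2, and neither counted as moved. The tally therefore does not show that list medians were stable. The cause of these changes was not tested. If each virus had its own hemisphere in CA1, as the study's methods state, hemisphere and virus cannot be told apart.

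Counts are given in the order differences higher and lower, means higher and lower, opposite genes with CA1 higher and with CA1 lower, and shared genes higher and lower, and were 13, 6, 20, 16, 5, 3, 11 and 8. With the replicate block they were 79, 31, 116, 70, 26, 15, 31 and 23, and in DESeq2 with the block 105, 41, 179, 73, 27, 26, 36 and 21. With the block and a pair of libraries left out they were 34, 28, 84, 28, 12, 10, 33 and 7 (pair 1 of neurons), 116, 48, 81, 115, 52, 16, 30 and 29 (pair 2 of neurons), 157, 54, 129, 164, 38, 14, 45 and 30 (pair 3 of neurons), 100, 26, 65, 27, 34, 12, 20 and 10 (pair 1 of CA1), 76, 191, 218, 263, 26, 60, 64 and 82 (pair 2 of CA1), 187, 36, 359, 70, 29, 14, 52 and 31 (pair 3 of CA1). Without a filter they were 94, 50, 81, 74, 72, 41, 64 and 46, with at least 50 counts 4, 4, 15, 7, 2, 2, 8 and 1, in DESeq2 21, 9, 27, 19, 7, 5, 15 and 8, in limma-voom 10, 5, 24, 19, 5, 4, 7 and 9, with group quality weights 9, 2, 15, 16, 6, 1, 7 and 8, and with IDs on no chromosome kept 13, 6, 21, 22, 5, 3, 12 and 14. Among alternatives chosen after seeing the data, a block in neurons only gave 55, 30, 83, 69, 20, 12, 31 and 21, removal of the length trend 15, 10, 19, 17, 4, 4, 12 and 10, and both length removal and the block 72, 30, 99, 53, 18, 12, 30 and 21.

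With 1 library left out the same counts ran from 4 to 123, 3 to 99, 6 to 148, 8 to 139, 2 to 41, 2 to 50, 1 to 42 and 4 to 36. Calls of higher differences were fewest without CA1 shBrpf1 2, and shared higher genes were fewest without neurons shBrpf1 1.

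Reversed values of the difference, or of the mean effect where named, were found for Mag (1.00, 1.01, 0.41, 0.71, 0.78, 1.30, 0.53, 0.15, 0.46, 0.50, 0.37), Pnoc (-0.44, -0.43, -0.26, -0.29, -0.79, -0.21, -0.36, -0.43, -0.31, -0.21), Syt4 (-0.22, -0.16), Sv2b (-0.30, -0.088, -0.33, -0.14), Htr2c (-0.63, -0.69), Rapsn (0.16, 0.14, 0.41), Fgf14 (0.27, 0.049, 0.18), Cacnb2 (0.15, 0.016), Grin2a (-0.53), Grin2b (-0.20), Gbp8 (mean effect, -0.59) and Gpr17 (-0.013).

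With 1 library left out, values that reversed ran for Syt4 from -0.36 to 1.07, Pnoc from -1.56 to 1.23, Sv2b from -0.13 to 0.82, Mag from -1.57 to 2.24, Fgf14 from -0.41 to 0.46, Cacnb2 from -0.59 to 0.38, C1ql1 from -0.50 to 1.96, Gpr17 from -2.69 to 7.58, Zfp488 from -1.64 to 3.60, Calml4 from -4.46 to 1.77, Rapsn from -1.20 to 0.85, Grin2a from -0.0016 to 1.41, Htr2c from -0.14 to 2.02 and Gbp8 (mean effect) from -0.77 to 1.35.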
